A study of Saccharomyces cerevisiae with 63 samples.

Results

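Unnamed open reading frames are stretches of the yeast genome that were predicted to encode a protein but had no gene name in the deposited table. Of its 6088 rows, 1357 had an empty name or only the systematic identifier, and 1330 of these lay outside the identifiers that begin with YCR. A row was kept as a member if its mean normalized count in WT at 3, 5, 6, 7 or 9 h reached 100 and was at least 8 times the WT mean at 0 h plus 1. The 210 rows kept were 15.8% of the 1330, and 722 of the 4731 named rows (15.3%) passed the same thresholds. All of these WT levels chose the members, so induction in WT is given here as a description and was not tested.

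The cells were SK1 yeast diploids carrying pCUP-IME1, so that IME1, the gene of the transcription factor that starts meiosis, answered to copper. The groups were an ime4 mutant, a pho92 mutant and WT, each sampled at 0, 2, 3, 5, 6, 7 and 9 h in sporulation (SPO) medium with 0.3% potassium acetate, and all 3 strains received 50 µM copper sulfate at the 2 h point. Each strain and time had 3 biological replicates, R1 to R3, which made 63 polyadenylated RNA libraries. The labels do not describe the ime4 and pho92 alleles further, and the copper-driven IME1 was shared by mutants and WT, so the courses are those of induced and not of natural entry.

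Ime4 is the catalytic subunit of the methyltransferase that places N6-methyladenosine (m6A) on yeast mRNA during meiosis, and Pho92 is a YTH-domain protein that binds m6A. Meiotic transcription in yeast runs in waves. Early genes of DNA replication and recombination carry URS1, a site bound by Ume6, with which Ime1 acts. Middle genes of the divisions and of spore formation carry the middle sporulation element (MSE), a site bound by the transcription factor Ndt80. Late genes serve maturation of the spore wall.

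The members lay on all 16 chromosomes, from 2 on chromosome III to 33 on chromosome IV. The 27 unnamed YCR rows that the rule left out belong to chromosome III, so the count there was limited by the rule. The R64 reference annotation held 161 of the 210 and gave a standard name to 70, such as SMN1, LDS1, SPR2 and GID10, and 49 were not in it. In the table, the median gene length of the members was 698 bases, against 410 bases for the unnamed rows that were not kept. Another row of the table overlapped 60 members, and 44 of them by at least 50% of their length, 38 on the opposite strand. Of these 44, 38 were also among the 49 not in R64. The libraries were stranded, but the strand setting of the counting is not given in the sources used here. How far reads of overlapping rows were kept apart was not tested. Levels and courses of such pairs are described below.

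Promoter sequences of 5 members are shown because their levels carry the results below and because they differ in the 2 motifs searched. Each window runs from 300 to 51 bases before the start codon and is written 5′ to 3′ on the strand of the gene, from the R64 genome of RefSeq. Capitals mark a match to the core of URS1 (GGCGGC) or to the MSE (GNCACAAA), each searched on both strands, so that a match can read as its reverse complement. Matches of the motifs could share bases with each other, which they do not in these windows. SPR2 (chrXV:746354-746603, minus strand) and LDS1 (chrI:119592-119841, minus strand) hold MSE matches, YKR005C (chrXI:450218-450467, minus strand) holds an MSE and a URS1 match, SMN1 (chrVIII:502088-502337, plus strand) holds URS1, and YDL218W (chrIV:66193-66442, plus strand) holds neither.
SPR2: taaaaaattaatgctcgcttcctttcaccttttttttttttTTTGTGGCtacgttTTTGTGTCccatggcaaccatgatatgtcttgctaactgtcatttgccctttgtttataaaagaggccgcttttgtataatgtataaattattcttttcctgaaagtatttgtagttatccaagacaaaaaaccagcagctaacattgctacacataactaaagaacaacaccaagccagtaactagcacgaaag
LDS1: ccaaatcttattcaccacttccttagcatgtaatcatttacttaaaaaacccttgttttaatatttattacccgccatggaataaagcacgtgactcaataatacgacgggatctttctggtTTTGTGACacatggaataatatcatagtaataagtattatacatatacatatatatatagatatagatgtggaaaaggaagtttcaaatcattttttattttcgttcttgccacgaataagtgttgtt
YKR005C: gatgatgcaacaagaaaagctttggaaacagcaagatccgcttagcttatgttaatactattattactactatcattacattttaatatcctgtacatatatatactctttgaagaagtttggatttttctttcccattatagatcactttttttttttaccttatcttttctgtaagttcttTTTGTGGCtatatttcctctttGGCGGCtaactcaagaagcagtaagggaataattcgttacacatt
SMN1: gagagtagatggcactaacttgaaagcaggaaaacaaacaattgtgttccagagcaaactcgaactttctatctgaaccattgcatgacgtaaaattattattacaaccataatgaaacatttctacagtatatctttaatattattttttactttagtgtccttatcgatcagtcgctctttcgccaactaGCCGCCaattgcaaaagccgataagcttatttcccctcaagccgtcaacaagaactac
YDL218W: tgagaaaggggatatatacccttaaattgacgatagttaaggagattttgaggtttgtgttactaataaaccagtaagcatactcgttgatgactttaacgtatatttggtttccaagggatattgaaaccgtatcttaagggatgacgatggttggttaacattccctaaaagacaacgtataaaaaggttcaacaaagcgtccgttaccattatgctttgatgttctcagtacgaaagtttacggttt

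An MSE match was present in the windows of 31 of the 210 members (14.8%), against 3.48% of all 6088 rows, 11.9% of the 722 named rows that passed the same thresholds and 2.05% of the 1120 unnamed rows not kept. All 31 were among the 165 members whose WT maximum fell at 6 or 7 h (18.8%). The 23 members with an earlier maximum and the 22 with a maximum at 9 h held no MSE match in these windows. The URS1 core was present in 18 members (8.57%), against 4.71% of all rows. Among the 722 named rows that passed the same thresholds it was present in 8.17%, and among the 1120 unnamed rows not kept in 4.46%. It lay in 3 of the 23 early members (13.0%) and 15 of the 165 middle ones (9.09%). These matches are descriptions of letters and not of binding.

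Total counts per library ranged from 12826747 to 33048881. IME4 averaged 0.170 to 1.85 CPM (counts scaled to library sizes that TMM, the trimmed mean of M-values, had adjusted) over the 7 times in the ime4 mutant, against 42.4 to 342 CPM in WT. PHO92 averaged 0.215 to 1.90 CPM from 3 to 9 h in the pho92 mutant, against 459 to 2139 CPM in WT, and PHO92 is itself 1 of the 210 members. Haploid and mating genes, which a diploid represses, took between 0.010% and 0.078% of the counts as group means. Replicates of a time were not fully in step. At 5 h the WT library R1 lay ahead, with a median member 0.38 above its group on the log2 scale against -0.11 and -0.26 for R2 and R3, and at 6 h the pho92 library R1 stood at 0.53 against -0.10 and -0.45.

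The 210 members together took 15.3%, 15.2% and 14.6% of all counts in the 3 WT libraries at 7 h, up from 0.469%, 0.426% and 0.425% at 0 h. In the ime4 mutant the share was 2.07%, 1.90% and 2.66% at 6 h, in the pho92 mutant 7.27%, 3.97% and 2.74%, and in WT 12.2%, 11.3% and 10.004%. The 3 strains did not overlap at 6 h, with ime4 lowest and WT highest. At 7 h the shares were 4.01%, 2.97% and 5.53% in ime4 and 12.3%, 10.8% and 8.17% in pho92, again below each WT library. By 9 h the order had turned, with 11.9%, 10.8% and 12.8% in ime4 and 12.9%, 13.9% and 13.7% in pho92, each above the 9.46%, 10.2% and 10.3% of WT.

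**Figure D1:**
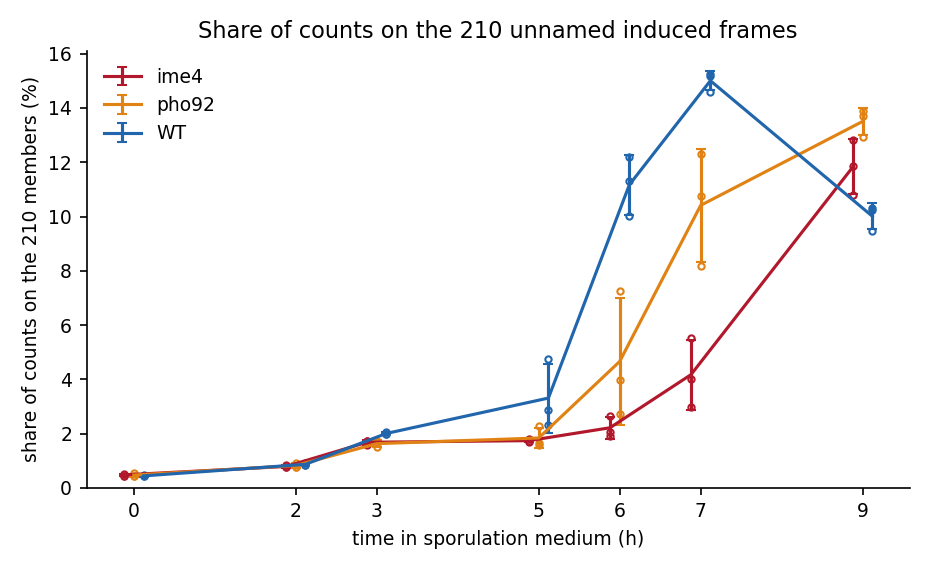
Share of all counts that fell on the 210 members (vertical axis, percent) against time in sporulation medium (horizontal axis, h) in ime4, pho92 and WT. Points are single libraries, lines join the means of 3 libraries and bars are SD; WT is highest at 7 h with a mean of 15.0%, where pho92 averages 10.4% and ime4 4.17%, and lowest of the 3 strains at 9 h with 10.01%.

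The members differed widely in WT induction, from 8.17-fold for YDR479C to 20584-fold for YPR078C over the WT mean at 0 h plus 1, with a median of 21.2. Just inside the level threshold stood YNL162W-A with a WT maximum of 101 normalized counts, YOR318C with 104 and YGL118C with 105. Just outside it stood YIR030W-A with 97.1, YOR161W-B with 95.2 and YMR316C-A with 94.1. On the fold threshold YDR479C, YKR078W and YKL070W lay inside with 8.17, 8.19 and 8.21, and YBR138C, YGL204C and YER076W-A outside with 7.99, 7.83 and 7.82.

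Over the times from 3 to 9 h, most members had their highest mean at 7 h in WT and at 9 h in ime4. The maximum fell at 3, 5, 6, 7 and 9 h in 11, 1, 11, 12 and 175 members in ime4, in 13, 7, 8, 93 and 89 in pho92, and in 15, 8, 26, 139 and 22 in WT. The WT hours divide the set into 23 early members (3 or 5 h), 165 middle members (6 or 7 h) and 22 late members (9 h). The hour of the maximum was later than in WT for 178 members in ime4 and for 97 in pho92, and the same for 20 in ime4 and 110 in pho92. Of the 139 members highest at 7 h in WT, 136 were highest at 9 h in ime4, while in pho92 71 were highest at 7 h and 66 at 9 h. These hours depended on the scaling. On CPM of the total counts, an alternative chosen after seeing the data, the maximum fell at 3, 5, 6, 7 and 9 h in 22, 4, 18, 29 and 137 members in ime4, in 24, 17, 9, 92 and 68 in pho92, and in 32, 10, 59, 75 and 34 in WT, and 138 of the 210 kept their WT hour. The classes used below are those of the deposited normalized counts. Since the course ended at 9 h, a maximum at 9 h in a mutant may lie before the mutant's true one, and a later hour for the late class could not be seen.

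**Figure D2:**
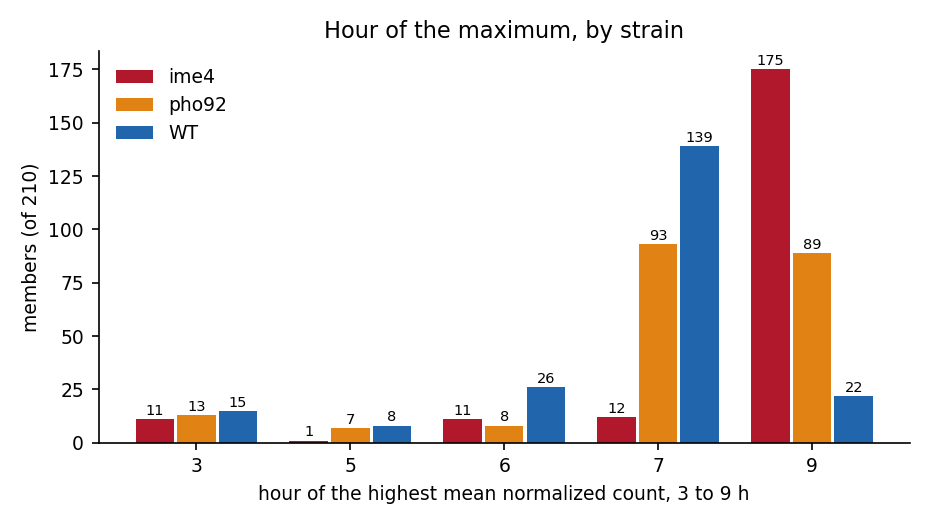
Number of the 210 members (vertical axis) whose highest mean normalized count from 3 to 9 h fell at each hour (horizontal axis), in ime4, pho92 and WT. The tallest bars are 175 members at 9 h for ime4, 93 at 7 h for pho92 and 139 at 7 h for WT.

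The highest mean among the sampled times was also lower in the mutants for most members, as a description of group means that were each a maximum. On TMM CPM, used here, 170 of the 210 ime4 maxima fell at 9 h, the last hour, and may lie below the true ones. The rule had chosen members by high WT levels, and no other scaling was tried for these percentages. As a percentage of the highest WT mean, the median member reached 55.3% in ime4 and 62.7% in pho92. In the ime4 mutant the early class reached a median of 77.3%, the middle class 56.1% and the late class 17.8%. In the pho92 mutant these medians were 81.2%, 59.5% and 65.2%. Of the 22 late members, 20 stayed under 50% of the WT maximum in ime4 and 8 in pho92.

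**Figure D3:**
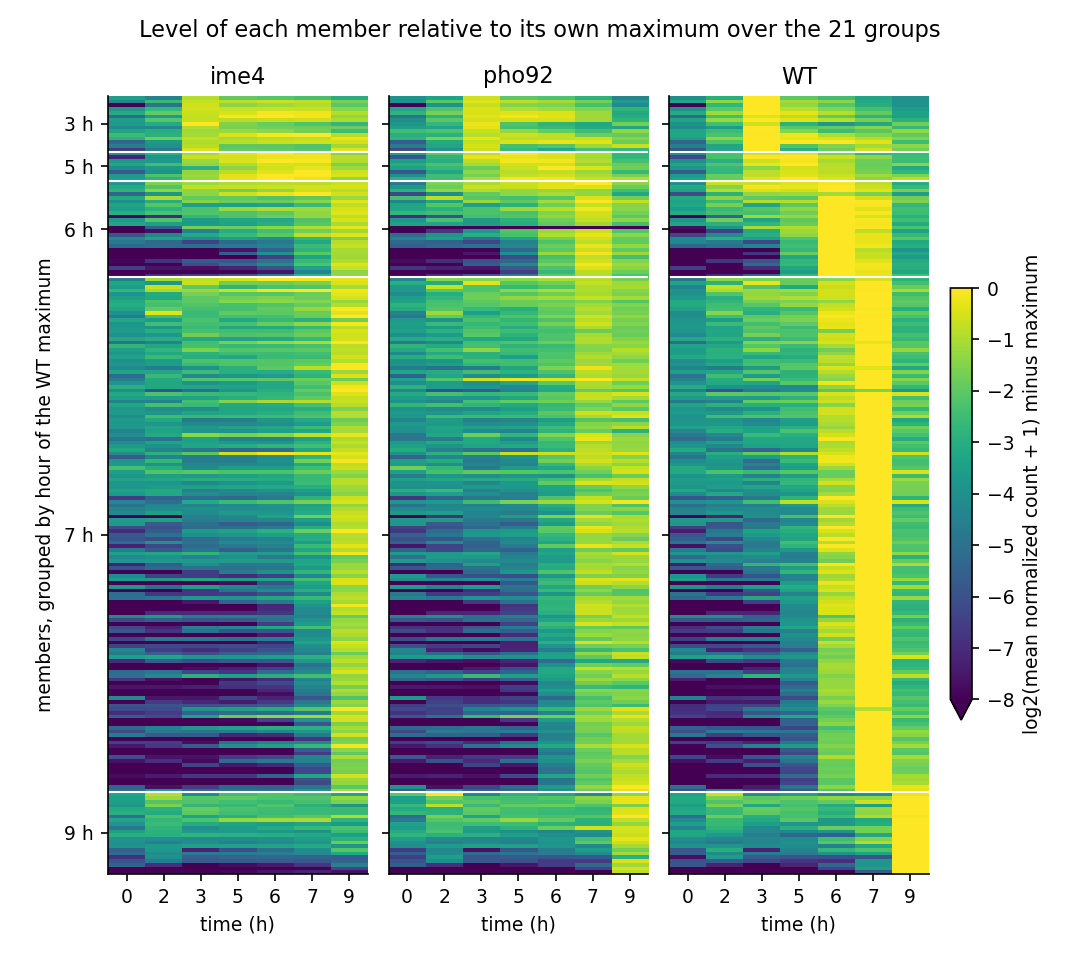
Level of each of the 210 members (rows, grouped by the hour of the WT maximum) at 0 to 9 h (columns) in ime4, pho92 and WT, as log2 of the mean normalized count plus 1 minus the member's own maximum over the 21 groups. The 139 members of the 7 h block are brightest at 7 h in WT, at 7 or 9 h in pho92 and at 9 h in ime4; the 9 h block is bright at 9 h in WT and pho92 and darker in ime4.

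Differences were tested with edgeR's quasi-likelihood test over 5822 genes, and a gene was called at a Benjamini-Hochberg adjusted p under 0.05. Both mutants were compared with the same WT libraries, which are also those the rule used, so a WT level that was high by chance was favoured, and the 2 comparisons are not independent of each other. The contrast of ime4 with pho92, and that of each mutant's own course, held no library of the rule. The WT libraries still entered the scaling, the filter and the shared estimate of spread. In bulk samples, fewer cells at a stage and less RNA per cell cannot be told apart.

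In their own courses the members rose in both mutants. In ime4, 174 members were higher and 4 lower over the mean of 3 to 9 h than at 0 h, where 40.3% of all genes tested were called higher and 39.9% lower. In pho92, 192 members were higher and 3 lower, against 41.6% and 40.2% of all genes. The median difference was 2.01 on the log2 scale in ime4 and 2.06 in pho92. All 23 early members were called higher in each mutant. Of the 22 late members, 12 were called higher in ime4 and 18 in pho92.

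At 0 h, before sporulation, 1 member was called, higher in ime4 than in WT, where 0.155% of all genes were called higher and 0.103% lower, while in pho92 17 members were higher and 7 lower (10.9% and 7.15% of all genes). At 2 h, 6 members were higher and 23 lower in ime4 (5.67% and 6.7% of all genes), and 10 were higher and 10 lower in pho92 (8.47% and 3.9%). The ime4 count of 29 at 2 h was 15 without ime4 R2 and 18 without ime4 R1 or without WT R1. At 3 h, 13 members were higher and 31 lower in ime4 (14.8% and 15.9% of all genes), and 12 were higher and 14 lower in pho92 (10.3% and 7.64%). At 5 h, 22 were higher and 98 lower in ime4 (23.4% and 26.0% of all genes), and 9 were higher and 88 lower in pho92 (17.3% and 16.3%). The pho92 count at 5 h rested partly on WT R1, the library that lay ahead, since without it 44 members were called in either direction in place of 97. The 3 h counts moved also, to 21 in ime4 without ime4 R2 and 24 without WT R2, in place of 44, and to 9 in pho92 without WT R2, in place of 26.

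At 6 h the ime4 mutant had 28 members higher and 164 lower than WT, where 43.6% of all genes were called higher and 34.5% lower. The pho92 mutant had 19 higher and 163 lower (37.8% and 33.0% of all genes). The median member was -2.26 on the log2 scale in ime4 and -1.66 in pho92, and the median of all genes 0.21 and 0.12. At 7 h, 21 members were higher and 169 lower in ime4 (44.9% and 37.5% of all genes), and 13 were higher and 127 lower in pho92 (34.7% and 28.1%). At 9 h the direction was the other way, with 139 higher and 30 lower in ime4 (46.9% and 33.3% of all genes) and 108 higher and 12 lower in pho92 (32.4% and 24.8%). The change of the difference itself between 6 and 9 h was called upward in 168 members and downward in 23 for ime4 (42.6% and 38.4% of all genes), and upward in 160 and downward in 13 for pho92 (36.9% and 37.1%). On total counts alone these were 144 upward and 39 downward for ime4, and 130 upward and 42 downward for pho92. The 722 named rows that passed the same thresholds had 92 higher and 547 lower in ime4 at 6 h, and 529 higher and 73 lower at 9 h.

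Between the mutants, the members were lower in ime4 than in pho92 at 6 and 7 h. At 6 h, 16 members were higher and 102 lower in ime4 (19.2% and 21.2% of all genes), with a median of -0.65 on the log2 scale. At 7 h, 30 were higher and 151 lower (34.6% and 33.4% of all genes), with a median of -1.38. At 9 h, 71 were higher and 36 lower (35.1% and 30.6%). At 0 h, 4 were higher and 7 lower (4.0% and 7.83%), at 2 h 3 were higher and 10 lower (2.06% and 4.93%), at 3 h 4 were called in each direction (2.3% higher and 2.71% lower), and at 5 h 12 were higher and 27 lower (8.61% and 10%). The 5 h count of 39 was 18 without ime4 R1, 19 without pho92 R1, 25 without ime4 R2 and 26 without pho92 R2.

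**Figure D4:**
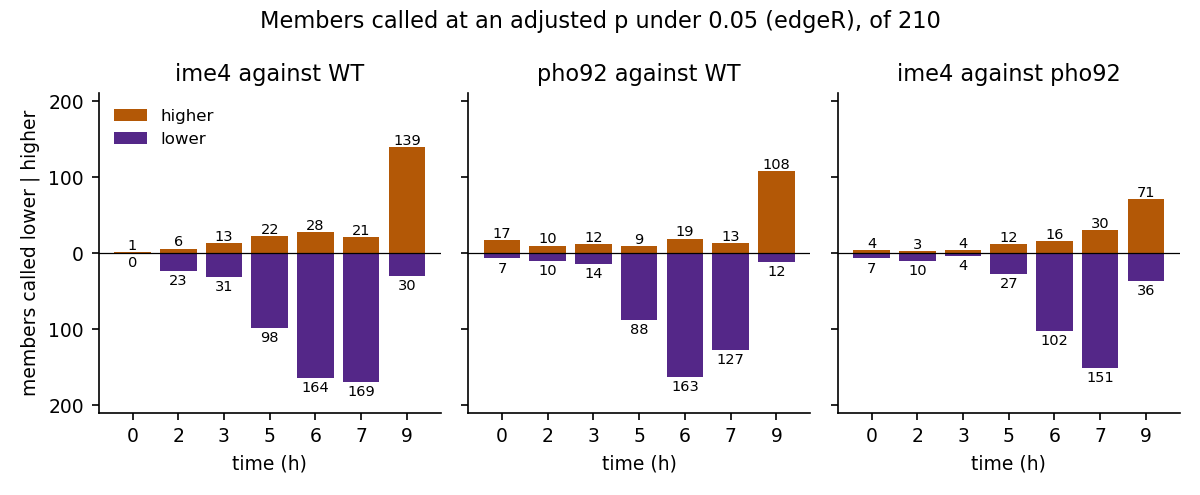
Number of the 210 members called higher (above 0) or lower (below 0) by edgeR at an adjusted p under 0.05 (vertical axis) at each time (horizontal axis, h) in ime4 against WT, pho92 against WT and ime4 against pho92. The lower calls are most numerous at 6 and 7 h in each panel. At 9 h the higher calls lead in each, with 139, 108 and 71 members. Among all genes tested, 46.9%, 32.4% and 35.1% were called higher then.

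These splits depended on the scaling, and the cause of this was not tested. When libraries were scaled by their total counts alone, the median of all genes moved up by 1.15 at 6 h and 1.77 at 7 h in ime4 against WT, and by 0.85 and 0.83 in pho92 against WT. The shares of all genes given in this text are those of TMM scaling and do not apply to splits on total counts. Shares on total counts are not given here. The members then had 53 higher and 131 lower in ime4 at 6 h and 59 higher and 105 lower at 7 h. In pho92 they had 45 higher and 124 lower at 6 h, 43 higher and 59 lower at 7 h, and 66 higher and 30 lower at 9 h. At 2 h the splits became 11 higher and 18 lower in ime4 and 16 higher and 5 lower in pho92. At 3 h the ime4 split became 18 higher and 16 lower, and at 5 h 36 higher and 81 lower. At 3 and 5 h the pho92 splits became 14 higher and 9 lower, and 20 higher and 72 lower. Between the mutants the split became 31 higher and 86 lower at 6 h, 56 higher and 96 lower at 7 h, and 92 higher and 30 lower at 9 h.

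Among early members, calls in ime4 against WT were mainly lower at 3 h and higher at 7 and 9 h. The class was cut by a WT maximum at 3 or 5 h, which favoured lower calls then and higher calls later. In ime4, 15 of the 23 were lower than in WT at 3 h and 1 was higher (median -0.68 on the log2 scale, 15.9% and 14.8% of all genes). At 7 h 17 were higher and 2 lower (median 1.35, 44.9% and 37.5%), and at 9 h 17 higher and 3 lower (median 1.28, 46.9% and 33.3%). In pho92, 5 were lower at 3 h (7.64% of all genes). At 7 h 10 were higher and 2 lower (34.7% and 28.1%), and at 9 h 4 higher and 1 lower (32.4% and 24.8%). Between the mutants, 18 of the 23 were higher and 1 lower in ime4 than in pho92 at 7 h (median 0.84, 34.6% and 33.4% of all genes). At 9 h 17 were higher and 4 lower (median 1.25, 35.1% and 30.6%). With total counts alone, 6 of the 23 were lower and 1 higher in ime4 at 3 h and 2 were lower in pho92, so most lower calls at 3 h were lost. On that scaling 22 of the 23 were higher in ime4 and 19 higher in pho92 than in WT at 7 h, and 2 were lower in pho92 at 9 h.

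SMN1 (YHR202W, chromosome VIII, 502388 to 504196), is annotated as a putative hydrolase of AMP. At 3 h it had 974, 769 and 811 CPM in ime4, 1094, 1038 and 926 CPM in pho92, and 1425, 1425 and 1352 CPM in WT. The WT libraries lay above all 6 mutant libraries. The ime4 difference was -0.72 ± 0.17 on the log2 scale (SE, n = 3 each, edgeR adjusted p = 0.0010), and the pho92 difference -0.46 ± 0.17 (edgeR adjusted p = 0.049). At 9 h SMN1 had 642, 733 and 537 CPM in ime4, 194, 177 and 235 CPM in pho92, and 198, 188 and 171 CPM in WT. The ime4 libraries stood apart from the other 6, which overlapped. The difference between ime4 and pho92 was 1.66 ± 0.17 (edgeR adjusted p = 1.5e-11).

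YGL081W, of no known function, had 412, 302 and 389 CPM at 3 h in ime4, 508, 452 and 384 CPM in pho92, and 725, 704 and 705 CPM in WT. The WT libraries lay above all 6 mutant libraries. The ime4 difference was -0.95 ± 0.24 (SE, n = 3 each, edgeR adjusted p = 0.0022). At 9 h ime4 held at 444 ± 4.08 CPM (SD), while pho92 averaged 200 ± 39.7 CPM and WT 123 ± 7.30 CPM. The named gene with the most similar course over the 21 groups was ZIP1, which encodes a protein of the synaptonemal complex (Pearson r = 0.986). SMN1 was most like DMC1, the meiotic strand exchange gene (r = 0.974).

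GMC1 (YDR506C), which acts in meiotic progression and assembly of the synaptonemal complex, had 266, 260 and 314 CPM at 6 h in ime4, 203, 262 and 278 CPM in pho92, and 115, 128 and 130 CPM in WT. The libraries of each mutant lay above those of WT and overlapped each other. The differences from WT were 1.17 ± 0.19 in ime4 (SE, n = 3 each, edgeR adjusted p = 4.2e-07) and 0.99 ± 0.19 in pho92 (edgeR adjusted p = 1.4e-05). At 9 h it was higher in ime4 than in pho92 by 1.38 ± 0.19 (edgeR adjusted p = 2.6e-08). ERG29 (YMR134W), a gene of ergosterol synthesis, was lower than WT at 3 h in ime4, at -1.03 ± 0.15, and in pho92, at -0.73 ± 0.15, and higher in pho92 at 7 h by 0.67 ± 0.15. YDL199C, a putative sugar transporter, was higher in ime4 than in pho92 by 2.12 ± 0.21 at 9 h.

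YIL071W-A, which R64 does not annotate, started 130 bases beyond the end of HOP1 on the same strand and had a course most like that gene's (r = 0.995). HOP1 encodes a protein of the meiotic chromosome axis. YIL071W-A had 321, 201 and 254 CPM at 3 h in ime4, 221, 292 and 213 CPM in pho92, and 366, 377 and 394 CPM in WT. The mutants overlapped each other and lay below WT, but neither difference was called (edgeR adjusted p = 0.32 in ime4 and 0.28 in pho92, n = 3 each). In 10 of the 210 members the most similar named gene lay within 1000 bases, in 9 of them on the same strand. They included YLR101C, 8 bases from APC9 (r = 0.996), YBL062W, 86 bases from KIP1 (r = 0.980), and YNL205C, which overlaps SPS18 by 203 bases (r = 0.998). Whether such rows are separate transcripts was not tested.

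Middle members made up most of the set and most of the lower calls at 6 and 7 h. The class was cut by a WT maximum at 6 or 7 h. Lower calls against WT at those hours, and higher calls at 9 h, were thus favoured. In ime4, 154 of the 165 were lower than in WT and 5 higher at 6 h (median -2.77 on the log2 scale, 34.5% and 43.6% of all genes). At 9 h 122 were higher and 5 lower (median 1.35, 46.9% and 33.3%). In pho92, 153 were lower and 2 higher at 6 h (median -1.87, 33.0% and 37.8% of all genes). At 7 h 110 were lower and 1 higher (28.1% and 34.7%), and at 9 h 104 higher and 2 lower (median 0.98, 32.4% and 24.8%). Between the mutants, 98 were lower and 6 higher in ime4 at 6 h (21.2% and 19.2% of all genes). At 7 h 142 were lower and 6 higher (median -1.71, 33.4% and 34.6%). With total counts alone, 102 were lower and 24 higher in ime4 than in WT at 7 h, 52 lower and 19 higher in pho92 than in WT, and 93 lower and 21 higher in ime4 than in pho92.

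SPR2 (YOR214C, chromosome XV, 745593 to 746303), is annotated as a putative spore wall protein. At 6 h it had 19.7, 23.2 and 111 CPM in ime4, 6109, 1457 and 651 CPM in pho92, and 25353, 17198 and 10951 CPM in WT. No 2 strains overlapped, and the spread within pho92 was wide, with R1 ahead. The differences were -8.45 ± 0.91 in ime4 against WT (SE, n = 3 each, edgeR adjusted p = 2.3e-11), -2.70 ± 0.70 in pho92 against WT (edgeR adjusted p = 0.00079) and -5.74 ± 0.81 in ime4 against pho92 (edgeR adjusted p = 2.4e-07). At 9 h SPR2 had 16574, 12234 and 23562 CPM in ime4, 23720, 30234 and 31737 CPM in pho92, and 12572, 14323 and 14319 CPM in WT. The ime4 and WT libraries overlapped, and the difference of 0.35 ± 0.66 was not called (edgeR adjusted p = 0.64).

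LDS1 (YAL018C, chromosome I, 118564 to 119541), which acts in spore wall assembly and sits on lipid droplets, peaked at 6 h in WT. At 6 h it had 241, 191 and 645 CPM in ime4, 7266, 3062 and 1462 CPM in pho92, and 13674, 17604 and 14401 CPM in WT. The 3 strains did not overlap. The differences were -5.41 ± 0.67 in ime4 (SE, n = 3 each, edgeR adjusted p = 8.7e-10) and -1.95 ± 0.58 in pho92 (edgeR adjusted p = 0.0026). At 9 h LDS1 was higher in ime4 than in WT by 2.75 ± 0.59 (edgeR adjusted p = 5.1e-05) and higher in pho92 by 1.95 ± 0.58 (edgeR adjusted p = 0.0037). Its nearest course was that of MUM3, a gene of spore formation (r = 0.995).

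The other leading middle members were also lower in both mutants at 6 h, and differed among themselves at 9 h. PIR5, of the PIR family of cell wall proteins, was lower in ime4 than in WT at -7.85 ± 0.77 at 6 h and in pho92 at -3.01 ± 0.61. YDR042C, of no known function, was lower at -6.84 ± 0.71 in ime4 and -2.70 ± 0.59 in pho92. YEL023C, a gene of no known function whose expression is known to rise in sporulation, was lower at -6.66 ± 0.66 and -2.77 ± 0.55. None of these 3 was called in either mutant at 9 h, where PIR5 stood at -0.03 ± 0.57 in ime4 and 0.75 ± 0.57 in pho92. YKR005C, of no known function, kept a smaller gap at 6 h of -2.25 ± 0.35 in ime4 and -1.12 ± 0.34 in pho92. YKR005C had already reached 261 ± 38.5 CPM in ime4 at 3 h (SD, n = 3), against 450 ± 184 CPM in pho92 and 625 ± 216 CPM in WT. LIH1, a putative lipase, was lower at 6 h at -4.83 ± 0.47 in ime4 and -1.99 ± 0.41 in pho92, and higher at 9 h by 2.08 ± 0.41 and 1.68 ± 0.41.

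YPR078C, with a possible role in DNA metabolism, had the largest called fall in ime4 against WT at 6 h among the members. It had 9.27, 6.85 and 41.4 CPM in ime4, 2546, 570.5 and 246 CPM in pho92, and 12854, 8711 and 5554 CPM in WT. No strains overlapped. The differences were -8.88 ± 0.95 in ime4 (SE, n = 3 each, edgeR adjusted p = 1.8e-11) and -3.01 ± 0.73 in pho92 (edgeR adjusted p = 0.00035). YPR077C, which followed at -8.58 ± 0.80 in ime4, lies within YPR078C on the same strand for 95.7% of its span, so the values of this pair may rest on the same reads. YGR273C, of no known function, was lower in ime4 than in pho92 at -4.91 ± 0.62.

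**Figure D5:**
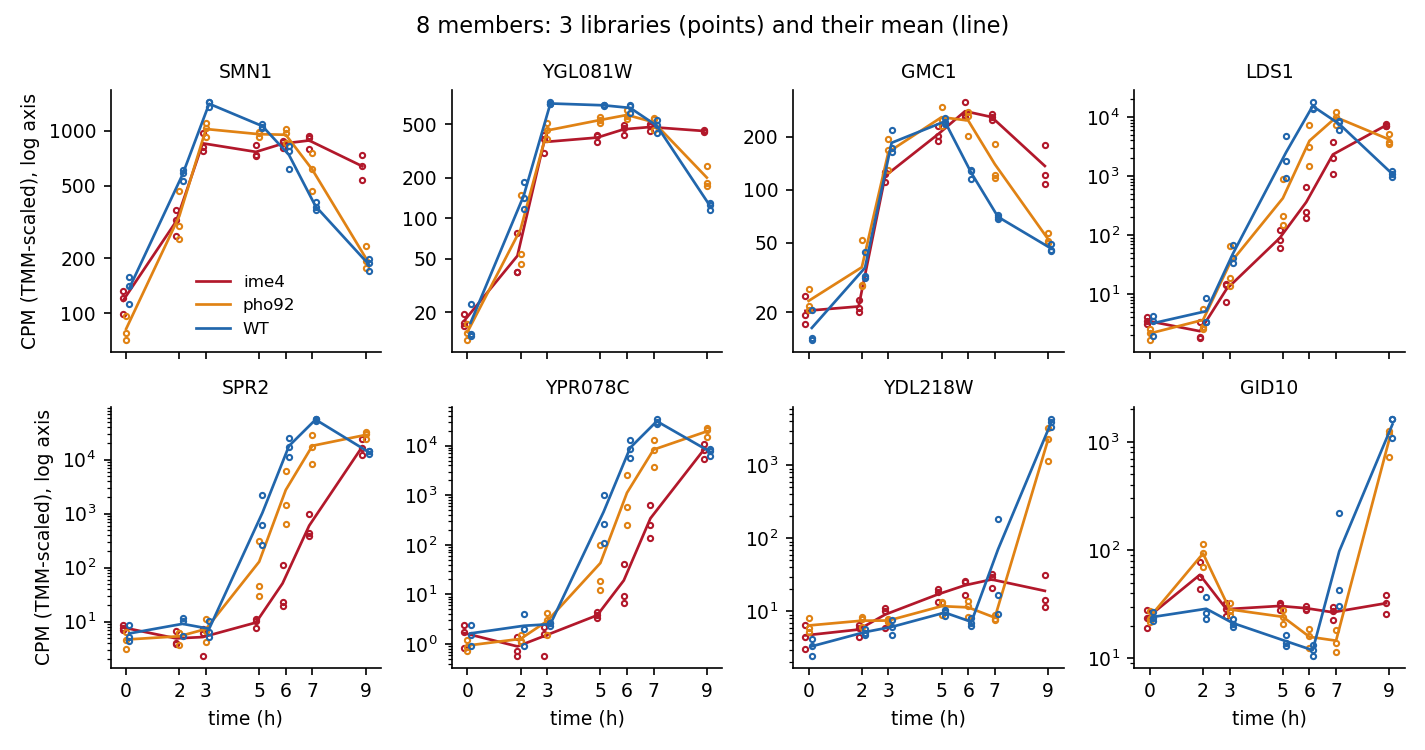
Levels of 8 members in CPM on TMM-scaled library sizes (vertical axes, log scale, a range for each gene) against time (horizontal axes, h) in ime4, pho92 and WT; points are 3 libraries and lines their means. SMN1, YGL081W and GMC1 stay high at 9 h in ime4, LDS1, SPR2 and YPR078C at 6 h are lowest in ime4 and highest in WT, and at 9 h YDL218W and GID10 average 19.1 and 32.3 CPM in ime4 and lie far higher in pho92 and WT.

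Genes known from the same waves were taken from lists for comparison. Of 35 middle genes of the Ndt80 wave, 32 were lower and 1 higher in ime4 than in WT at 6 h (median -5.57 on the log2 scale), 32 lower and 2 higher in pho92 (median -2.26), and 32 lower in ime4 than in pho92 (median -3.34). At 9 h, 30 of the 35 were higher in ime4 and 26 in pho92 than in WT. Of 20 late spore wall genes, which include LDS1 and SPR2 of the middle class here, 18 were lower and 1 higher at 6 h in each mutant. The calls of this list at 9 h are not given here. Of 25 early recombination genes, 11 were lower in ime4 at 3 h, and 23 were higher and 1 lower at 7 h, against 13 higher in pho92 at 7 h. Of 21 DNA replication genes, 15 were higher and 1 lower in ime4 at 9 h, and 5 higher and 2 lower in pho92. Of 13 haploid and mating genes, 4 were higher and 6 lower in ime4 at 6 h, and 4 higher and 5 lower in pho92. Of 15 genes of mitotic G1, 6 were higher and 5 lower in ime4, and 5 higher and 7 lower in pho92. The shares of all genes called in these comparisons are those given above for the same times.

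NDT80 itself averaged 432 ± 156, 1010 ± 459 and 3271 ± 608 CPM at 6, 7 and 9 h in ime4, 1331 ± 767, 3370 ± 923 and 2497 ± 272 CPM in pho92, and 5424 ± 884, 6269 ± 229 and 1014 ± 92.0 CPM in WT (SD, n = 3). Its order of strains at each of these times was that of the share of counts on the members at 6 and 7 h, while at 9 h NDT80 was highest in ime4. The part of NDT80 in the members' levels was not tested. MCM5, a subunit of the replicative helicase and the 1 member on the DNA replication list, followed the middle class in WT. MCM5 had 179, 173 and 169 CPM at 6 h in ime4, 273, 206 and 184 CPM in pho92, and 597, 491 and 411 CPM in WT. Both mutants lay below WT, at -1.53 ± 0.18 for ime4 (SE, n = 3 each, edgeR adjusted p = 2.3e-10) and -1.18 ± 0.18 for pho92 (edgeR adjusted p = 2.6e-07).

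PHO92, a member with its WT maximum at 6 h, had 820, 730 and 1027 CPM at 6 h in ime4 and 2160, 2232 and 2024 CPM in WT. The ime4 libraries lay below those of WT, at -1.32 ± 0.46 on the log2 scale (SE, n = 3 each, edgeR adjusted p = 0.0091). At 9 h PHO92 had 1742, 1622 and 1832 CPM in ime4 and 414, 458 and 504 CPM in WT, a difference of 1.92 ± 0.47 (edgeR adjusted p = 0.00028). PHO92 itself is 1 of the lower calls in each comparison of pho92 with WT and 1 of the higher calls in each comparison of ime4 with pho92 from 3 to 9 h.

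Late members showed the widest separation of the mutants from each other. The class was cut by a WT maximum at 9 h, which favoured lower calls against WT at that hour. At 9 h all 22 were lower in ime4 than in WT (median -3.07 on the log2 scale, 33.3% of all genes). In pho92 9 were lower than in WT (median -0.62, 24.8% of all genes). Between the mutants 21 were lower in ime4 than in pho92 (median -2.26, 30.6% of all genes). With total counts alone, 22 were lower in ime4 than in WT, 20 were lower in pho92 than in WT, and 21 were lower in ime4 than in pho92. At 7 h, 15 were lower and 2 higher than in WT in each mutant (37.5% and 44.9% of all genes in ime4, 28.1% and 34.7% in pho92). The ime4 direction at 7 h turned with the scaling, to 13 higher and 3 lower on total counts alone, and the pho92 split became 5 higher and 6 lower. WT R1 stood apart in some late members at 7 h, such as GID10 with 219, 42.6 and 30.2 CPM in the 3 WT libraries.

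YDL218W is of no known function and is annotated as regulated by the transcription factor Azf1. At 9 h it had 14.5, 31.4 and 11.4 CPM in ime4, 3255, 2331 and 1161 CPM in pho92, and 4384, 3934 and 3348 CPM in WT. The ime4 libraries stood far below the others, and the pho92 libraries all lay below those of WT. The differences were -7.66 ± 0.62 in ime4 against WT (SE, n = 3 each, edgeR adjusted p = 2.4e-15), -0.79 ± 0.46 in pho92 against WT (edgeR adjusted p = 0.14) and -6.87 ± 0.59 in ime4 against pho92 (edgeR adjusted p = 1.0e-13). At 7 h it had 20.6, 32.3 and 29.2 CPM in ime4, 8.92, 7.73 and 7.96 CPM in pho92, and 186, 17.0 and 9.30 CPM in WT. WT R1 stood apart from the other 8 libraries.

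GID10 (YGR066C), a subunit that recognises N-degrons for the GID ubiquitin ligase, had 25.7, 32.5 and 38.6 CPM at 9 h in ime4, 1252, 1189 and 724 CPM in pho92, and 1093, 1620 and 1641 CPM in WT. The pho92 and WT libraries overlapped and ime4 lay below all of them. The differences were -5.49 ± 0.40 in ime4 against WT (SE, n = 3 each, edgeR adjusted p = 7.7e-17), -0.46 ± 0.33 in pho92 against WT (edgeR adjusted p = 0.23) and -5.03 ± 0.39 in ime4 against pho92 (edgeR adjusted p = 3.5e-15). In ime4 its mean over 3 to 9 h did not pass the test against 0 h, at 0.32 ± 0.27 (edgeR adjusted p = 0.27). At 2 h, when copper was added, GID10 averaged 59.1 ± 17.2 CPM in ime4 (SD), 93.0 ± 22.0 CPM in pho92 and 28.7 ± 7.06 CPM in WT, and both mutants were higher than WT, by 1.04 ± 0.33 (edgeR adjusted p = 0.030) and 1.70 ± 0.34 (edgeR adjusted p = 0.00049).

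SDD1 (YEL057C), a gene known as a target of the repressor Ume6, had 76.8, 55.9 and 94.3 CPM at 9 h in ime4, 1072, 899 and 521 CPM in pho92, and 1718, 1803 and 1814 CPM in WT. No strains overlapped, and both mutants were called lower, ime4 at -4.56 ± 0.32 (SE, n = 3 each, edgeR adjusted p = 2.0e-17) and pho92 at -1.10 ± 0.27 (edgeR adjusted p = 0.00070). YLR012C, of no known function, had 17.5, 10.6 and 22.0 CPM in ime4, 1187, 1285 and 760 CPM in pho92, and 941, 1676 and 1625 CPM in WT at 9 h. It was lower in ime4 than in pho92 at -6.02 ± 0.59 (edgeR adjusted p = 3.5e-12). The named genes with the most similar courses were DIT1 for YDL218W (r = 0.977) and ICS2 for SDD1 (r = 0.977). For GID10 this was NOP16 (r = 0.937) and for YLR012C ERV41 (r = 0.947).

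A smaller group of members was higher in the mutants when most were lower. The largest called rises at 6 h in ime4 against WT were YDL129W at 2.83 ± 0.27, YNL162W-A at 2.76 ± 0.43, YBR116C at 2.14 ± 0.38 and YEL009C-A at 2.08 ± 0.27. YDL129W, of no known function, had 17.2, 16.7 and 17.4 CPM at 6 h in ime4, 7.55, 7.71 and 9.15 CPM in pho92, and 3.06, 2.21 and 2.07 CPM in WT. The strains did not overlap. At 9 h YDL129W had 10.4, 10.2 and 11.5 CPM in ime4, 89.5, 92.4 and 62.9 CPM in pho92, and 103, 141 and 132 CPM in WT, and was lower in ime4 than in pho92 at -2.93 ± 0.25 (n = 3 each, edgeR adjusted p = 4.0e-14). YNL162W-A and YBR116C likewise had their WT maximum at 9 h and were lower in ime4 then, at -2.95 ± 0.40 and -3.19 ± 0.37. YBR116C shares 63.4% of its span with TKL2 on the same strand (r = 0.973).

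TGL5 (YOR081C), a triacylglycerol lipase and acyltransferase of lipid droplets, was called higher than in WT at 3 h in both mutants. With TGL5, 9 of the 165 middle members were higher in ime4 then and 6 in pho92, against 14.8% and 10.3% of all genes. At 3 h TGL5 had 107, 101 and 126 CPM in ime4, 44.3, 54.4 and 51.4 CPM in pho92, and 25.2, 20.4 and 23.9 CPM in WT. The strains did not overlap, with ime4 highest. The differences were 2.27 ± 0.36 in ime4 against WT (SE, n = 3 each, edgeR adjusted p = 3.3e-06), 1.11 ± 0.35 in pho92 against WT (edgeR adjusted p = 0.021) and 1.15 ± 0.34 in ime4 against pho92 (edgeR adjusted p = 0.037). At 7 h TGL5 had 174, 170.1 and 223 CPM in ime4, 763, 383 and 165 CPM in pho92, and 1389, 1140.0 and 1174 CPM in WT, and ime4 was lower than WT at -2.71 ± 0.36 (edgeR adjusted p = 3.7e-09). TGL5 was thus higher in ime4 than in WT at 3 h and lower at 7 h.

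Between the mutants at 9 h the largest called rises in ime4 after PHO92 were YGR190C at 2.59 ± 0.40, YDR102C at 2.26 ± 0.43 and YMR075C-A at 2.20 ± 0.39. Their group means were 8.80 to 10.5 CPM in ime4 and 1.72 to 2.01 CPM in pho92. YGR190C lies opposite HIP1 and YMR075C-A opposite RCO1, by 66.1% and 95.4% of their spans. YHR022C, of no known function, was higher in pho92 than in WT at 6 h by 1.37 ± 0.29 and lower at 9 h at -1.62 ± 0.27.

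Overlap on the opposite strand went with courses of every kind. Over the 38 members overlapped by at least 50% from the opposite strand, Pearson r with the partner over the 21 group means ran from -0.69 to 0.98, with a median of 0.07, and 6 reached 0.8. YGR226C, which lies wholly opposite AMA1, had 246 normalized counts in WT at 7 h against 414690 for AMA1 (r = 0.98). YDR371C-A, wholly opposite CTS2, had 179 against 661715 for CTS2 (r = 0.86). YER087C-A, in contrast, had 753 against 139 for AIM10 (r = -0.69), and YOL134C had 6596 against 561 for HRT1 (r = -0.63). These counts are not per length. The 21 group means of a pair come from the same libraries.

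Rows that R64 does not annotate were counted apart, and their difference from the rest was not tested. Of the 49, 42 were lower and 6 higher in ime4 than in WT at 6 h (34.5% and 43.6% of all genes). At 9 h 33 of them were higher and 3 lower (46.9% and 33.3% of all genes). Of the 161 members in R64, 122 were lower and 22 higher at 6 h, and 106 higher and 27 lower at 9 h. In pho92 at 9 h, 21 of the 49 were higher and 1 lower than in WT (32.4% and 24.8% of all genes). Of the 161, 87 were higher and 11 lower. In ime4 at 3 h, 1 of the 49 was higher and 4 lower (14.8% and 15.9% of all genes). Of the 161, 12 were higher and 27 lower. Of the 44 members overlapped by at least 50%, 35 were lower and 6 higher in ime4 at 6 h, and of the other 166, 129 were lower and 22 higher. Over all 210 members, the named gene with the most similar course reached r of at least 0.95 in 181, with a median of 0.979.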

How the data were processed

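RNA was sequenced from 63 libraries (3 strains, 7 times, 3 replicates), as stranded TruSeq libraries of polyadenylated RNA read from 1 end over 50 bases, per the labels' protocols. The deposited table held raw counts per gene and normalized counts, a signal divided by the authors' size factors, per the file headers. It also held the authors' log2 fold changes and p-values for the mutants against WT, which are not printed here. The submitters' processing notes name bcl2fastq 2.17.1.14, TopHat2 2.0.14, Bowtie, HTSeq 0.6.1, R 3.5.1 and DESeq2 1.22.1. The strand setting of the counting is not given in the sources used here.

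Members, WT maxima and threshold neighbours were taken from the deposited normalized counts. The deposited raw counts of all 63 libraries were fitted with edgeR 4.0.16 in R 4.3.3 as 21 groups, with TMM scaling and genes kept by filterByExpr with a minimum count of 10. This removed 266 rows, left 5822 including all 210 members, and each contrast was tested by glmQLFTest with Benjamini-Hochberg adjustment at 0.05. Total counts of 12826747 to 33048881 per library set the precision. Alternatives were DESeq2 1.42.0, RLE scaling, total counts only, no filter, the compared libraries alone, a replicate block and leaving out each replicate. The fit was tested on simulated data.

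The members and gene lists were chosen with earlier results of these data known. Genes were named by rule: the 4 members with the highest WT mean at each WT maximum, the 4 with the largest called changes in each direction at 6 h, and in ime4 against pho92 at 9 h, the 3 nearest each side of each threshold, the most similar or overlapping named genes, and control genes. ERG29 and MCM5 at other times, and the pairs of overlapping rows and neighbours, were chosen after their values were seen. Promoter windows came from the R64 genome of RefSeq, whose gene starts equalled those of the table in 99.93% of 5575 matched rows. Replicates are biological per the labels, and the labels do not say that a number marks a shared day or batch. Deviations of same-numbered libraries from their group means correlated above 0.1 in every pair in 3 of 21 comparisons, pho92 and WT at 2, 5 and 6 h, and not in the other 18.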

Additional observations from a re-analysis of the deposited data

Results flagged for a closer look

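The difference of a mutant from WT was itself different between 6 and 9 h in most members, by the edgeR interaction of strain and time (adjusted p under 0.05). In ime4, 168 members had a higher and 23 a lower difference from WT at 9 h than at 6 h, where 42.6% of all genes were called higher and 38.4% lower. The largest were YFL012W at 9.23 and YJL043W at 9.21 on the log2 scale, and, in the other direction, YDL218W at -9.32 and GID10 (YGR066C) at -6.78. In pho92, 160 members had a higher and 13 a lower difference, against 36.9% and 37.1% of all genes. With libraries scaled by total counts alone, 144 were higher and 39 lower in ime4, and 130 higher and 42 lower in pho92. With TMM scaling the largest in pho92 were YDR371C-A at 4.72 and YPR078C at 4.37, and, downward, YCL048W-A at -3.13 and YHR022C at -2.99. YDR371C-A lies wholly opposite CTS2.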

How the results depend on the processing

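Of the results on whole comparisons, 216 recomputed values stayed within 1.5 times and 31 moved. Of the other recomputed values, 794 were labelled the same, 40 weaker, 9 stronger, 4 moved and 2 reversed. With the compared libraries alone, 91 members were called in either direction in ime4 against WT at 3 h. At 3 and 5 h the counts were 75 and 64 in pho92 against WT, and 13 and 62 in ime4 against pho92. The share of all genes called in these fits, and in those leaving out a replicate below, is not given here. Whether the members moved more than all genes thus cannot be read from these counts. Applying the rule to total-count scaling, an alternative chosen after seeing the data, kept 137 of the 210 members. The calls among these 137, without direction or a share of all genes, were 123, 121 and 112 in ime4 against WT at 6, 7 and 9 h. In pho92 against WT they were 112, 82 and 74, and in ime4 against pho92 119 at 7 h. On total counts alone YGL081W at 6 h turned to 0.61 in ime4 and 0.66 in pho92 against WT. Other called differences of named members changed sign too. In ime4 against WT at 7 h YKR005C went from -0.72 to 1.04 and LDS1 from -1.72 to 0.02. YDL218W went from -1.39 to 0.42 and MCM5 from -1.66 to 0.11 in the same comparison. The cause was not tested. Leaving out each replicate gave 15 to 30 calls in ime4 against WT at 2 h, 21 to 39 at 3 h, 91 to 123 at 5 h, 183 to 190 at 6 h, 184 to 191 at 7 h and 154 to 168 at 9 h. In pho92 against WT it gave 9 to 38 at 3 h, 44 to 104 at 5 h, 172 to 181 at 6 h, 117 to 152 at 7 h and 104 to 135 at 9 h. In ime4 against pho92 it gave 4 to 6 at 3 h, 18 to 44 at 5 h, 82 to 126 at 6 h, 168 to 182 at 7 h and 91 to 107 at 9 h.

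With a replicate block, 121 members were called in ime4 against WT at 5 h and 47 at 3 h. In pho92 against WT, whose same-numbered libraries deviated together at 5 and 6 h, the block gave 9 higher and 89 lower at 5 h, and 17 higher and 163 lower at 6 h. A blocked count for pho92 against WT at 2 h is not given here. Members at a few CPM, such as YDR102C, rest on few reads.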
